A study of Mus musculus with 2 samples.

Results

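The genes of the nuclear pore and of transport through it were examined in PB2, the second polar body, and in the zygote of the mouse. They were taken by symbol and not by level: numbered nucleoporins with their membrane and adaptor partners, importins and exportins, Ran with its binding proteins, the mRNA export receptor, lamins, Lbr and Emd. Of the 11262 genes of the table, 66 belonged to this set. PB2 and zygotes came from untreated C57BL/6 embryos (C57BL/6N by the study's methods) at the late 1-cell stage. The embryos had been cultured in KSOM medium, their zona pellucida was dissolved with acid, and PB2 was then detached from the zygote by trypsin and pipetting. The zygote sample is thus the embryo after removal of PB2. Each library was made from pooled material by full-length amplification of polyadenylated mRNA, with 1 library per group. The spread between samples is therefore unknown, no test was possible, and every difference describes these 2 libraries alone.

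The nuclear pore is a channel of stacked protein rings through which proteins and RNA pass the nuclear envelope. Import receptors of the importin beta family carry cargo inward, often with importin alpha as the adaptor that reads the nuclear localization signal, while exportins and the Nxf1-Nxt1 pair carry proteins and mRNA outward, and the GTPase Ran sets the direction of receptor traffic. In the zygote pores are built into the envelopes of the maternal and paternal pronuclei, and the mRNAs for this machinery are largely inherited from the oocyte.

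Values are TPM, a measure of the share a gene's transcripts take of a library after adjustment for gene length, deposited with 1 decimal. A TPM is a proportion of its own library, so a higher TPM in PB2 does not mean more molecules there than in the zygote. Neither the RNA content of a polar body nor the size of the pool can be read from it. The number of reads behind a value is unknown. A pseudocount of 1 TPM was added to both values of a gene, and the log2 of PB2 over zygote, called the log2 ratio, was taken over the 10645 genes with at least 1 TPM in either library. That filter kept 62 of the 66 members. Kpna1, Nup210, Nup210l and Ranbp6 stayed under 1 TPM in both libraries, and Tnpo2, Ranbp3l, Lmnb2 and Nup205 passed through 1 library only. Both samples derive from the oocyte, and all 9 oocyte markers were present in both libraries, which does not tell one sample from the other, with summed levels of 22106 TPM in zygotes and 25995 in PB2. Of 12 cumulus and granulosa cell markers looked up, 2 had a row among the 11262 genes, Cyp19a1 and Fshr; Cyp19a1 had 72.2 TPM in zygotes and 70.9 in PB2, and Fshr 2.2 and 3.3 TPM. The part of such cells in the results was not tested. Where a pair of TPM values is given for a gene without naming the library, the zygote comes first.

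Of the members compared, 50 lay within 2-fold between PB2 and the zygote. In all, 11 of the 62 members reached 2-fold in favour of PB2, which is 17.7%, and among all genes compared the share was 18.9%. In the other direction 1 member, Nup37, was at least 2-fold higher in the zygote, against 8.09% of all genes. The members therefore passed 2-fold in PB2 about as often as the table at large. Their median log2 ratio was 0.28, with quartiles of -0.15 and 0.78, beside 0.21 for all genes with quartiles of -0.38 and 0.82. Over all 66 members, 44 had the higher TPM in PB2, 21 in the zygote, and Nup210 was equal. Among those compared the share with the higher TPM in PB2 was 66.1%, and among all genes compared it was 59.2%, so counts of the higher TPM by group are to be read against that share. With log2 ratios centred on the median of all genes, 9 members were past 2-fold in PB2 and 5 in the zygote (Nup37, Nup43, Nup54, Kpna3 and Ipo11), beside 13.0% and 12.1% of all genes. Centring also put the medians of the inner ring (0.19), exportins (0.20), nuclear basket (0.07) and mRNA export receptor (0.01) below 0, at -0.02, -0.01, -0.13 and -0.20, while the other 8 role groups kept the sign of their median.

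**Figure D1:**
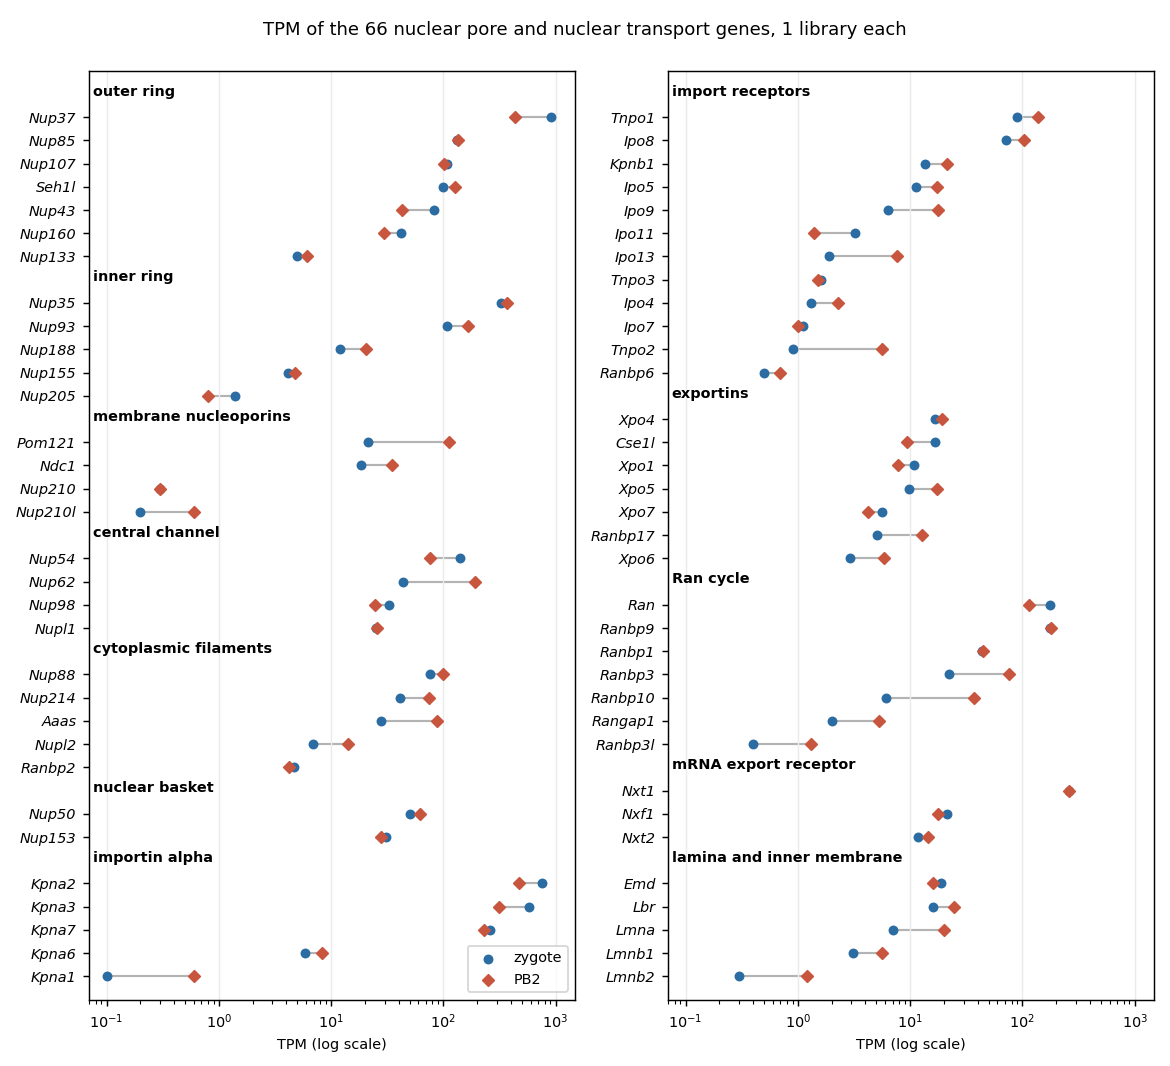
TPM of each of the 66 genes in the zygote (blue circles) and in PB2 (red diamonds) on a log axis, grouped by role, with a grey line joining the 2 values of a gene. Each point is 1 library. Levels span from 0.1 TPM for Kpna1 in the zygote to 911.2 TPM for Nup37 in the zygote, and most pairs lie close together.

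The 3′ ends of the transcripts were read as a sequence feature that did not enter the choice of genes. Maternal mRNAs of oocytes and early embryos often carry a cytoplasmic polyadenylation element near the 3′ end, which controls the length of the poly(A) tail, and both libraries start from polyadenylated mRNA. The letters TTTTAT were searched on the sense strand in the final 100 bases of each gene's longest protein-coding transcript. The motif was present in 13 of 61 members, 21.3%, and in 15.2% of all 10606 genes. Members with the motif had a median log2 ratio of 0.29 and those without it 0.32. Over all genes these medians were 0.23 and 0.21. Past 2-fold in PB2 were 2 of the 13 members with the motif and 9 of the 48 without it. Among all genes it was 305 of 1615 with the motif and 1701 of 8991 without it. The windows below, 30 bases from the annotated transcripts of GENCODE M21 with the motif in capitals, are shown for the 3 members lowest in PB2 relative to the zygote, for abundant members in between and for 2 of the 3 highest, all ordered by the log2 ratio with the pseudocount of 1 TPM.
Nup37, chr10:88178300-88178329, plus strand: aaaaatccttatTTTTATatcaaacatact
Nup43, chr10:7678811-7678840, plus strand: tagttatcaaaaTTTTATcaccagaaagtg
Nup54, chr5:92415579-92415608, minus strand: tttgttttgtttTTTTATttctaaaaatga
Nup35, chr2:80658873-80658902, plus strand: tccaaataaactttgtcaatTTTTATgtgc
Ipo8, chr6:148770716-148770745, minus strand: aaatgcaggaacTTTTATgaatgtactgta
Nup62, chr7:44830713-44830742, plus strand: tcatgtctaTTTTATttctctgcactctat
Ranbp10, chr8:105768318-105768347, minus strand: tgacagaattatTTTTATtaaaatacacat
The motif stood at both ends of the range, in Nup37 with a log2 ratio of -1.07 as in Ranbp10 with 2.42. It also stood between them, in Nup98, Xpo4, Nxt2, Nup88, Ipo5 and Kpnb1, whose windows are not shown. The motif began 77 bases from the 3′ end in Nup37, 59 in Nup43, 91 in Nup62 and 28 in Ranbp10, counting the last base as 1. In Nup35 it began at 10, downstream of the AATAAA hexamer printed in the same window. The transcript ends used in these embryos were not measured.

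The outer ring, also called the Y complex, is the scaffold that coats both faces of the pore. Its subunits whose symbols fall outside the rule are not counted here. None of the 7 taken by symbol was 2-fold higher in PB2, and 3 had the higher TPM there. Nup37, a small beta-propeller subunit on chromosome 10 (GRCm38, 88146992 to 88178390, plus strand), was the most abundant of all 66 genes in the zygote, with 911.2 TPM against 432.3 TPM in PB2 and a log2 ratio of -1.07. It lay close to the 2-fold line, at -0.94 after removal of the trend on GC content (described further on) and at -0.96 after removal of the trend on transcript length. Nup43, another beta-propeller subunit, had 82.4 TPM in zygotes and 43.2 in PB2, and Nup160, a long scaffold subunit, had 42.4 and 29.8 TPM. The other large subunits hardly differed. Nup85 had 132.8 and 134.6 TPM, Nup107 107.4 and 100.8 TPM, and Nup133 5.0 and 6.1 TPM. Seh1l, which links the ring to amino acid sensing as well, was slightly higher in PB2, with 127.6 TPM against 99.4 TPM. These 7 subunits of 1 complex thus had very unequal mRNA levels, with the highest 182 times the lowest in the zygote and 70.9 times in PB2.

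In the inner ring, which lines the channel and anchors it to the membrane, 4 of 5 members had the higher TPM in PB2 and none reached 2-fold. Nup35, which binds the curved pore membrane, dominated the group with 325.0 TPM in zygotes and 371.4 in PB2. Nup93, the linker that holds the channel nucleoporins, had 107.5 TPM in zygotes and 165.1 in PB2, and Nup188, a large scaffold protein, had 11.9 and 20.5 TPM. Nup155 with 4.1 and 4.8 TPM and Nup205 with 1.4 and 0.8 TPM were scarce in both. Nup35 and Nup205 marked the ends of a range of 232-fold in the zygote and 464-fold in PB2, the latter resting on a value under 1 TPM.

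The membrane nucleoporins held 1 of the largest differences of the set. Pom121, an integral protein that takes part in early steps of pore assembly, had 21.2 TPM in zygotes and 113.3 in PB2, a log2 ratio of 2.36. It lies on the minus strand of chromosome 5 from 135376141 to 135394546, and 11.9% of its longest protein-coding transcript overlaps exons of Nsun5 on the opposite strand, whose reads could not be separated if counting ignored strand. Ndc1, its partner in the membrane, went the same way with 18.6 TPM in zygotes and 34.8 in PB2. Nup210 and its relative Nup210l were nearly undetected, at 0.3 TPM in both libraries and at 0.2 and 0.6 TPM.

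Nucleoporins of the central channel carry the phenylalanine-glycine repeats that form the permeability barrier, and they diverged within a single subcomplex. Nup62, on chromosome 7 from 44816088 to 44830812, had 43.6 TPM in zygotes and 191.2 in PB2, a log2 ratio of 2.11. Its partners in the same trimer did not share this difference. Nup54 was lower in PB2 at 75.5 TPM, beside 141.5 TPM in the zygote and a log2 ratio of -0.90, and Nupl1 (also known as Nup58) had 25.1 TPM in zygotes and 25.8 in PB2. Nup54 was thus the most abundant of the 3 in the zygote, and Nup62 in PB2. Both Nup54 and Nup62 hold the TTTTAT motif. GC content was 57.4% for Nup62 and 45.5% for Nup54, and without the GC trend their log2 ratios were 1.27 and -0.86. The part of GC content in this difference was not tested. Nup98, a repeat protein that binds mRNA export factors, had 32.9 TPM in zygotes and 24.8 in PB2.

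The cytoplasmic filaments were higher in PB2 for 4 of 5 members. Aaas, the ALADIN protein held at the pore by Ndc1, had 27.7 TPM in zygotes and 87.1 in PB2, a log2 ratio of 1.62 that was 0.99 after removal of the GC trend. Nup214, a docking site for exportin complexes, had 41.2 and 75.3 TPM, its partner Nup88 had 75.9 and 100.1 TPM, and Nupl2 (Nup42) had 6.9 and 14.1 TPM. The log2 ratio was 0.85 for Nup214 and 0.93 for Nupl2. Nupl2 was short of 2-fold only through the pseudocount of 1 TPM: its TPM ratio was 2.04, and its log2 ratio was 1.02 and 1.03 with pseudocounts of 0.1 and 0.01. Ranbp2, the giant filament protein that binds Ran and SUMO enzymes, was low in both, with 4.7 TPM in zygotes and 4.2 in PB2. The 2 basket members were even. Nup50 had 50.7 and 61.7 TPM and Nup153 had 30.6 and 27.9 TPM.

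**Figure D2:**
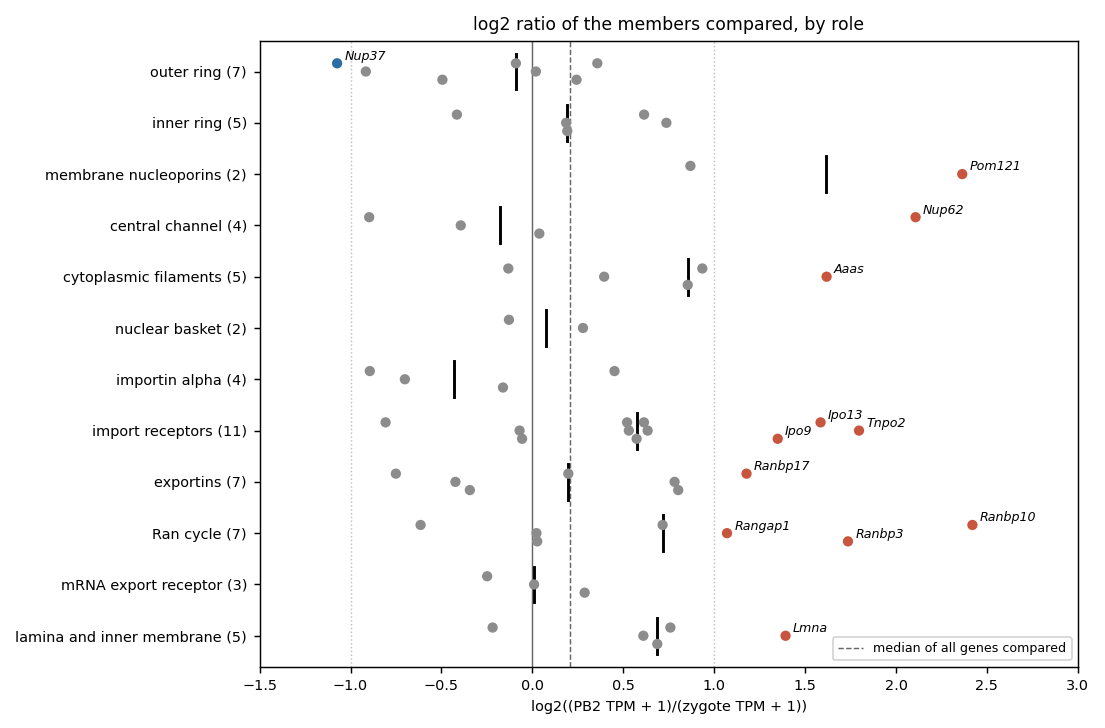
log2 ratio of the 62 members compared, 1 point per gene, in 12 role groups with the number compared in brackets. Black bars are group medians, the dashed line is the median of all genes compared at 0.21, and dotted lines mark 2-fold; red points are past 2-fold in PB2 and the blue point, Nup37, is past 2-fold in the zygote.

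Importin alpha was the most abundant group in both libraries, and its summed level was lower in PB2 at 1021 TPM, beside 1609 TPM in the zygote. Kpna2, the adaptor for classical nuclear localization signals in many dividing cells, had 762.2 TPM in zygotes and 468.4 in PB2, and Kpna3, of another importin alpha subfamily, had 581.3 and 312.3 TPM, with log2 ratios of -0.70 and -0.89. Kpna7, the importin alpha known from oocytes and early embryos, was nearly even at 259.2 TPM in zygotes and 231.6 in PB2. The remaining importins alpha with a row were scarce. Kpna6 had 5.8 and 8.3 TPM, and Kpna1 had 0.1 and 0.6 TPM. Kpna4 had no row among the 11262 genes, so its level is unknown and the sums leave it out. In both libraries the order was Kpna2, Kpna3, Kpna7, Kpna6 and Kpna1, and none of the 4 compared passed 2-fold. Kpna1, under 1 TPM in both libraries, was not compared.

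Of the import receptors 9 of 12 had the higher TPM in PB2, among them Ranbp6, which was under 1 TPM in both libraries and not compared. The median of the 11 compared was 0.57, or 0.23 without the length trend. Tnpo1, which imports hnRNP proteins, was the most abundant receptor, with 90.3 TPM in zygotes and 138.7 in PB2, followed by Ipo8, a relative of Ipo7, with 71.9 and 104.3 TPM. Kpnb1, the importin beta that works with importin alpha, had 13.5 TPM in zygotes and 21.5 in PB2. The summed level of the 5 importin alpha genes with a row was 119 times that of Kpnb1 in the zygote and 47.5 times in PB2. Ipo5, a receptor for ribosomal proteins and histones, had 11.3 and 17.3 TPM.

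Past 2-fold in PB2 were Ipo9, Ipo13 and Tnpo2, all of low abundance. Ipo9, a carrier of histones, had 6.3 TPM in zygotes and 17.6 in PB2, with a log2 ratio of 1.35. Ipo13, which carries cargo in both directions, had 1.9 and 7.7 TPM; its log2 ratio of 1.58 was 0.74 without the GC trend. Tnpo2, the close relative of Tnpo1, had 0.9 and 5.6 TPM, a ratio of deposited values that rounding places between 5.84 and 6.65. It overlaps A230103J11Rik on the opposite strand over 11.1% of its transcript. Ipo11 went the other way, with 3.2 TPM in zygotes and 1.4 in PB2, a ratio of zygote over PB2 of 2.29. Its log2 ratio of -0.81 was -1.14 and -1.19 with pseudocounts of 0.1 and 0.01. It was -1.15 without the length trend and -0.68 without the GC trend. Ipo4 (1.3 and 2.3 TPM, with 60.1% of its transcript shared with Gm49378 on the same strand), Tnpo3 (1.6 and 1.5 TPM), Ipo7 (1.1 and 1.0 TPM) and Ranbp6 (0.5 and 0.7 TPM) stayed near the limit of what 1 decimal can resolve.

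Exportins were all of low level, at most 16.7 TPM in zygotes and 19.3 in PB2, both for Xpo4. Xpo1, the receptor for leucine-rich export signals, had 10.8 TPM in zygotes and 7.8 in PB2, and Cse1l, which returns importin alpha to the cytoplasm, had 16.5 and 9.4 TPM. Both were lower in PB2, as was Xpo7 with 5.6 and 4.2 TPM. Xpo5, the exporter of microRNA precursors, was higher in PB2 with 17.4 TPM against 9.7 TPM, and so was Xpo6, the actin exporter, with 5.8 TPM against 2.9 TPM. Ranbp17, a relative of Xpo7, was the only one past 2-fold, with 12.8 TPM there and 5.1 TPM in the zygote, a TPM ratio of 2.51. Centred on the median of all genes its log2 ratio was 0.97, and without the length trend 0.83.

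The Ran group held 3 of the 11 members past 2-fold in PB2, beside even or lower ones. Ran itself had 176.2 TPM in zygotes and 114.7 in PB2, a log2 ratio of -0.61, and Ranbp1, the cofactor of GTP hydrolysis on Ran, had 43.8 and 44.5 TPM. For Ranbp1, 25.9% of the transcript is shared with Gm49776 on the same strand, and Ran has a near-identical retrocopy in the mouse genome, so both values are uncertain. Rangap1, the GTPase activator, had 2.0 TPM in zygotes and 5.3 in PB2. Its log2 ratio of 1.07 was the one nearest above the 2-fold line in PB2 and was 0.86 when centred, 0.37 without the GC trend and 0.73 without the length trend. The level of Ran was 88.1 times that of Rangap1 in the zygote and 21.6 times in PB2.

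Ranbp10 had 6.1 TPM in zygotes and 37.0 in PB2, and its log2 ratio of 2.42 was the largest of the set with the pseudocount of 1 TPM. With a pseudocount of 0.01 it was 2.60, and that of Tnpo2 was 2.62. It lies on the minus strand of chromosome 8 from 105768308 to 105827350. Its close relative Ranbp9 was even, with 176.2 TPM in zygotes and 179.5 in PB2. Both belong to a ubiquitin ligase complex rather than to the transport machinery proper, and the excess of Ranbp9 over Ranbp10 was 28.9-fold in the zygote and 4.85-fold in PB2. Ranbp3, a cofactor of Xpo1, had 22.3 TPM in zygotes and 76.6 in PB2, with a log2 ratio of 1.74 that was 0.87 without the GC trend. Ranbp3l, its relative, had 0.4 and 1.3 TPM, and with a log2 ratio of 0.72 it passed 2-fold once the GC trend was removed, at 1.19, and with pseudocounts of 0.1 and 0.01, at 1.49 and 1.68.

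The mRNA export receptor differed little. Nxt1, the small subunit, had 261.0 TPM in zygotes and 262.7 in PB2, Nxf1, the large subunit that binds the pore, had 21.1 and 17.6 TPM, and Nxt2, a second small subunit, had 11.7 and 14.5 TPM. Nxt1 exceeded Nxf1 by 12.4 times in the zygote and 14.9 times in PB2.

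Among the lamina genes the B-type lamins, the lamins that line the envelope in nearly all cells, were scarce, with 3.1 TPM in zygotes and 5.6 in PB2 for Lmnb1 and 0.3 and 1.2 TPM for Lmnb2. Lmna, which encodes the A-type lamins, had 7.0 TPM in zygotes and 20 in PB2, a log2 ratio of 1.39 that was 0.47 after removal of the GC trend. Lbr, the lamin B receptor of the inner membrane, had 15.9 and 24.8 TPM, and Emd, which encodes emerin, had 18.9 and 16.1 TPM. Thus 4 of the 5 had the higher TPM in PB2, and with the pseudocount of 1 TPM Lmna alone passed 2-fold. Lmnb2 depended on the setting: its log2 ratio of 0.76 was 1.70 and 1.96 with pseudocounts of 0.1 and 0.01, and -0.09 without the GC trend.

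The pool of these mRNAs was composed differently in the 2 libraries. The 66 genes together made up 0.50% of a full library in the zygote and 0.451% in PB2. Nup37, Kpna2 and Kpna3 held 45.1% of the members' TPM in the zygote, while the top 3 of PB2, Kpna2, Nup37 and Nup35, held 28.2%. The outer ring and importin alpha took 27.6% and 32.2% of the members' TPM in the zygote and 19.4% and 22.6% in PB2. Nup37 alone gave 911.2 TPM of the outer ring sum of 1381 TPM in the zygote, and 432.3 of 874 TPM in PB2. The summed level of the membrane nucleoporins was 3.70 times as high in PB2, from Pom121 above all, that of the cytoplasmic filaments 1.80 times and that of the import receptors 1.57 times. Of the 18 members with at least 100 TPM in either library, 11 had the higher TPM in PB2, 7 had it in the zygote, and their median log2 ratio was 0.02. Among all genes compared, at any level, 59.2% had the higher TPM in PB2. The share among all genes with at least 100 TPM is not given here.

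**Figure D3:**
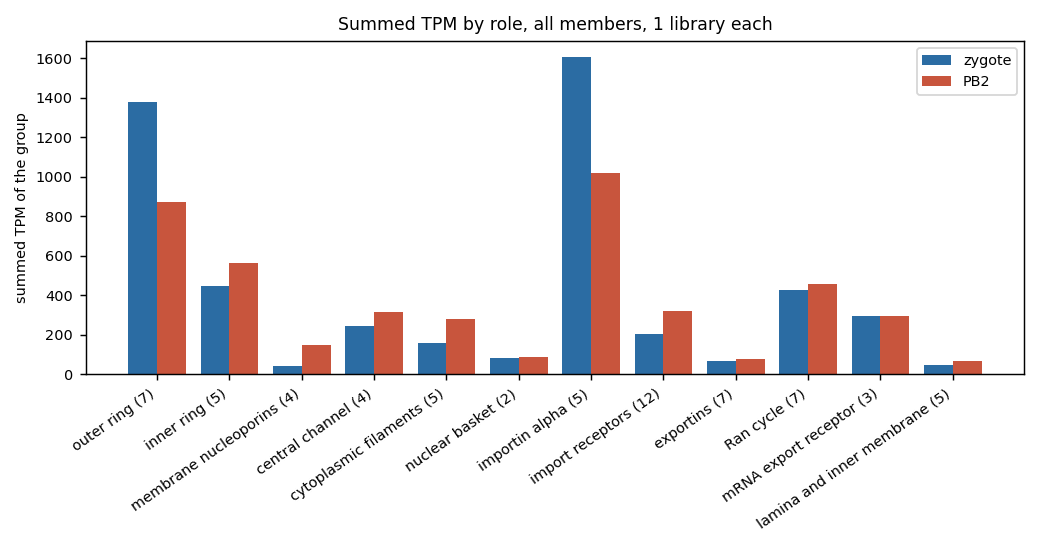
Summed TPM of all members of each role group in the zygote (blue) and in PB2 (red), 1 library each, on a linear axis from 0, with the number of genes in brackets. The outer ring (1381 and 874 TPM) and importin alpha (1609 and 1021 TPM) are the tallest pairs and are lower in PB2. Nup37 alone holds 911.2 TPM of the outer ring sum in the zygote and 432.3 TPM in PB2.

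The log2 ratio of the members moved with the GC content of their transcripts, as it did across the table. Across the 61 members compared that have a protein-coding transcript in GENCODE M21 (all but Nupl1), the log2 ratio and GC content gave a Spearman's rho of 0.57 and a Pearson's r of 0.58; across all 10606 such genes rho was 0.44. Genes of 1 pair of libraries are not independent replicates, so these are descriptions. GC content had a median of 55.4% in the 11 members past 2-fold in PB2, from 46.8% for Ranbp17 to 59.3% for Lmna, and of 47.3% in the other members. All genes were split by GC content into 3 classes of equal size. In the class richest in GC, 9 of 17 members passed 2-fold in PB2, which is 52.9%, beside 37.6% of all its genes. In the poorest class it was 0 of 23 members, beside 4.89% of all genes. Transcript length moved less with the log2 ratio of the members, with a rho of 0.11.
With the loess trend on GC content removed, 6 of the 11 stayed past 2-fold: Ranbp10 at 1.96, Pom121 at 1.52, Nup62 at 1.27, Tnpo2 at 1.26, Ranbp17 at 1.14 and Ipo9 at 1.13. Aaas, Ranbp3, Ipo13, Lmna and Rangap1 did not. What part GC content has in the values of these 5 was not tested.

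**Figure D4:**
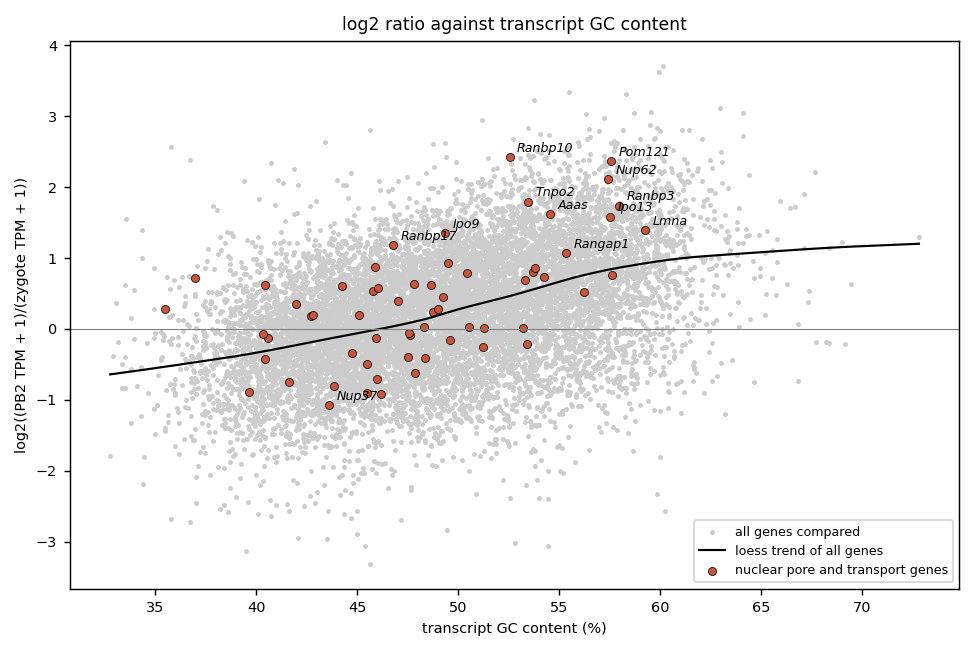
log2 ratio against transcript GC content for all genes compared (grey), with the loess trend of all genes (black line) and the 61 members with a transcript (red points, those at least 2-fold apart named). Members past 2-fold in PB2 lie mostly at the GC-rich end, and Ranbp10 stands farthest above the trend among the named genes, by 1.96.

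Genes of the same pathways outside the symbol rule were described from 3 hand-written lists. Their counts are to be read against the table at large, with 18.9% of genes past 2-fold toward PB2 and 8.09% toward the zygote. The median log2 ratio of all genes was 0.21. Each list is short, and whether its share differs from that of the table was not tested. Of 13 further pore and transport genes, 3 passed 2-fold toward PB2 and 1 toward the zygote, and the median log2 ratio was 0.34. Rcc1, the exchange factor that loads Ran with GTP on chromatin, had 8.3 TPM in zygotes and 33.4 in PB2. Rae1, the partner of Nup98, had 94.4 and 243.3 TPM, and Gle1, which acts in mRNA release at the filaments, had 54.5 and 127.8 TPM. Nmd3, the adaptor that brings the large ribosomal subunit to Xpo1, was lower in PB2 with 65.7 TPM in zygotes and 18.3 in PB2.

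Of 15 mRNA export genes, 3 were higher in PB2 past 2-fold, namely Thoc3 (70.0 TPM in zygotes and 203.2 in PB2), Alyref (1.6 and 6.4 TPM) and Mcm3ap (14.8 and 30.9 TPM). Thoc1, a subunit of the same THO complex as Thoc3, was higher in the zygote, with 101.6 TPM against 30.3 TPM in PB2. Their median log2 ratio was 0.05. Of 12 nuclear envelope genes analysed, 10 were compared, with a median log2 ratio of 0.31. Tmpo (9.6 and 22.3 TPM), Icmt (3.4 and 9.5 TPM) and Tor1aip1 (4.4 and 12.9 TPM) were at least 2-fold higher in PB2. Banf1, which bridges chromatin and the envelope, had 695.9 TPM in zygotes and 330.9 in PB2, and Zmpste24, the protease that matures prelamin A, had 42.9 and 13.4 TPM. The lamin A gene and its protease thus had log2 ratios of opposite sign, 1.39 and -1.61. GC content was 59.3% for Lmna and 41.8% for Zmpste24, and 52.4% for Thoc3 and 40.2% for Thoc1. Banf1, lower in PB2, had 56.9%. The part of GC content in these differences was not tested.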

How the data were processed

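Expression was taken from 1 PB2 library and 1 zygote library. By the supplementary methods and the submitters' processing notes, the authors aligned reads with HISAT2 2.0.4, counted them with HTSeq 0.6.1p1 on an Ensembl annotation and normalized with DESeq2 1.18.1. GRCm38 and the rabbit build OryCun2.0 are both named, and the identifiers are those of mouse. The authors deposited TPM rounded to 1 decimal; how it was derived, and how counting treated strand or reads with several matches, is not given in the sources used here. Depth is unknown and no counting error can be given.

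From these values the log2 ratio with a pseudocount of 1 was computed over genes with at least 1 TPM in either library, and a threshold of 2-fold was used. With 1 library per group no test was run. Members, roles and lists were chosen with earlier results of these data known. Every member may be named, and genes of the other lists where at least 2-fold apart; genes near the 2-fold line were picked with their values known. Positions, GC content and 3′ ends came from the longest protein-coding transcript in GENCODE M21 (GRCm38), and GC and length trends by loess (span 0.3). Functions were tested on simulated data. Alternatives were pseudocounts of 0.1 and 0.01, no filter, a filter at 5 TPM, thresholds of 1.5-fold and 4-fold, centring, TPM rescaled with mitochondrially encoded genes and the top 50 genes left out, and GC or length trends removed. Python 3.11.15, pandas 2.3.3 and statsmodels 0.14.6 were used.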

Additional observations from a re-analysis of the deposited data

How the results depend on the processing

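No paired analysis was possible because each group has 1 library. Counts within 1.5 times, the members' median within 0.25 and group medians or single genes within 0.5 (log2) were taken as unchanged. Of the member counts and medians, 106 results under alternatives stayed within these limits and 18 moved, and no member at least 2-fold apart changed sign. The count higher in PB2 was 7 of 61 without the GC trend, where it was 9.08% of all genes, 24 of 62 at 1.5-fold (34.2% of all genes) and 3 of 62 at 4-fold (2.48% of all genes). The count higher in the zygote, 1 in the comparison reported, was 2 with either smaller pseudocount, 5 when centred, 4 without the length trend, 8 at 1.5-fold, and 0 without the GC trend and at 4-fold; all genes had 10.3% and 10.4% with the smaller pseudocounts, 12.1% centred, 11.7% without the length trend, 18.1% at 1.5-fold, 11% without the GC trend and 0.695% at 4-fold. The median of the Ran group was 1.36 and 1.40 with pseudocounts of 0.1 and 0.01. That of the membrane nucleoporins, 1.62 from 2 genes, was 0.64 with no filter and 0.85 after rescaling, which add genes under 1 TPM. Without the GC trend the medians were 0.34 for the cytoplasmic filaments, -0.51 for the mRNA export receptor and 0.16 for the lamina. Without the length trend that of the central channel was -0.72; both trend fits leave out Nupl1. The cause of the other moves was not tested. Depth is unknown, so genes under a few TPM are the least certain.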
